A study of Mus musculus with 17 samples.

Results

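The genes described are the conjugating enzymes of 3 families: the UDP-glucuronosyltransferases (UGT), the cytosolic sulfotransferases (SULT) and the glutathione transferases with their membrane relatives (GST and MGST). They were chosen by symbol among protein-coding mouse genes (Ugt1 to Ugt3, Sult, Gstm, Gstp, Gstt, Gstk, Gsto, Gstz and Mgst, without the alpha class). This gave 63 genes, 21 in each family, of 55487 gene identifiers in the table. Values are reported for the 23 genes with at least 10 counts in 6 or more of the 17 libraries: 5 UGT, 5 SULT and 13 GST or MGST genes. The other 40 are given by their summed counts.

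Transcripts were counted by 3′ end RNA sequencing in kidney tissue of 17 mice, 8 of the db/m and 9 of the db/db genotype, with 1 library per animal. All were males aged 16 weeks from a BKS stock that carries the leptin receptor mutation Leprdb. The design text gives the db/m animals as HE/HE and the db/db animals as WT/HO, and does not spell these codes out. In db/m mice 1 of the 2 Lepr alleles is mutant and the animals stay lean, while in db/db mice both are and obesity with diabetes develops.

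UGT enzymes sit in the endoplasmic reticulum and join glucuronic acid from UDP-glucuronate to steroids, bilirubin, fatty acids and drugs. SULT enzymes sit in the cytosol and transfer sulfate from the donor PAPS to phenols, catecholamines and steroids. GST enzymes join glutathione to electrophiles, and the products are trimmed and acetylated to mercapturates, for which the proximal tubule of the kidney is a main site. Conjugates leave the cell through ABC transporters and are excreted in bile or urine.

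Gene counts per library ran from 3256427 to 7627747. Libraries db/db 1, 7 and 8 stood apart from the rest of their group (a median Spearman correlation with the group more than 3 median absolute deviations under the median of all libraries). All 3 are db/db, so results that move without them are given both ways. Group membership follows the titles, whereas the genotype characteristic names the other group in each of the 17 samples. Were that characteristic correct, all directions below would be inverted. Lepr itself had 3.75 ± 1.91 CPM (counts scaled to a common library total, TMM-adjusted; SD, n = 8) in db/m and 1.91 ± 1.41 CPM (SD, n = 9) in db/db (edgeR adjusted p = 0.211). The db mutation changes the splicing of the long receptor form, so this 3′ count does not check the genotype. Library numbers run in group order, so that a batch following them cannot be told apart from the group.

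All 23 reported genes passed the filter on low counts. Of these, 4 were higher in db/db kidneys (Ugt2b34, Gsto1, Gstm5 and Gstt3; 17.4% of the members tested) and 2 were lower (Ugt2b37 and Ugt2b38; 8.70%). Over all 12131 genes tested, 3.91% were called higher and 3.49% lower, 7.39% in either direction (edgeR quasi-likelihood test, adjusted p under 0.05). The median log2 fold change (db/db minus db/m) was 0.15 over the members and 0.00 over all genes tested. Without libraries db/db 1, 7 and 8 the members called numbered 6 higher and 3 lower, with Sult1d1, Sult1a1 and Ugt3a2 added. Calls over all genes rose too, from 474 to 534 higher and from 423 to 574 lower.

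**Figure D1:**
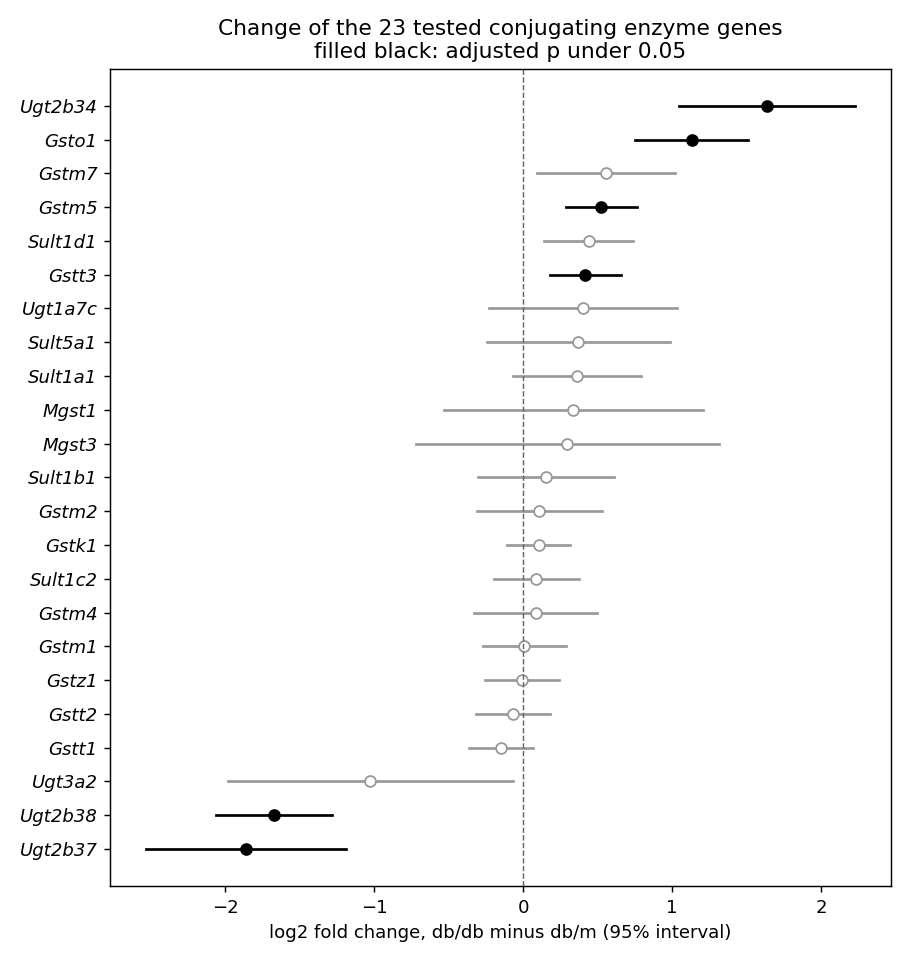
Log2 fold change (db/db minus db/m, x axis) of each of the 23 tested genes (y axis, ordered by value) with its 95% confidence interval; filled black points have an adjusted p under 0.05 and open grey points do not. Ugt2b37 (-1.86) and Ugt2b38 (-1.67) lie at one end and Ugt2b34 (1.64) and Gsto1 (1.13) at the other, with most intervals in between crossing 0.

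The UGT2B genes held the members with the largest changes. They lie in a cluster on chromosome 5, where the order in RefSeq is Ugt2b34, Ugt2b1, Ugt2b35, Ugt2b36, Ugt2b5, Ugt2b37, Ugt2a3, Ugt2b38, Ugt2a1 and Ugt2a2, followed by Sult1b1, Sult1d1 and Sult1e1. The 2 members that fell lie on either side of Ugt2a3, and the member that rose stands at the far end of the cluster. The 120 bases before the start of these 3 genes are printed from RefSeq (build GRCm38.p6), because Ugt2b37 and Ugt2b38 carry nearly the same sequence there. Capitals mark the longest run that Ugt2b37 and Ugt2b38 share, and in Ugt2b34 the longest run shared with Ugt2b37. Each is read 5′ to 3′ on the minus strand.
Ugt2b37, chr5:87254789-87254908: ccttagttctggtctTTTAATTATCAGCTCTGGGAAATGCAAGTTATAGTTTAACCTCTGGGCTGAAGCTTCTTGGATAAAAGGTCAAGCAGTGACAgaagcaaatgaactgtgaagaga
Ugt2b38, chr5:87424204-87424323: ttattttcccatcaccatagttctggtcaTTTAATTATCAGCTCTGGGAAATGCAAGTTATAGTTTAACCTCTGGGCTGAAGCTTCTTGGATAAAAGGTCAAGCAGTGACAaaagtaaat
Ugt2b34, chr5:86906938-86907057: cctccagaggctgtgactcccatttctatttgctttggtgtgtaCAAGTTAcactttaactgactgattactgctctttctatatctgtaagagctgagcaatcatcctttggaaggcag

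The run shared by Ugt2b37 and Ugt2b38 is 82 bases long and lies 105 to 24 bases before the Ugt2b37 start and 91 to 10 bases before the Ugt2b38 start. Over the 250 bases upstream, 224 of 236 aligned bases were identical (94.9%). Ugt2b34 shared no run longer than 7 bases with either. Ugt2b5, the neighbour of Ugt2b37, shared a run of 68 bases with Ugt2b37 and of 62 with Ugt2b38. Its transcript was nearly absent, with a total of 70 counts over the db/m and 35 over the db/db libraries. Ugt2b36 shared 24 and 22 bases and had 1 count in each group. The part of these sequences in the levels and changes was not tested.

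Ugt2b37 had the highest mean of the UGT transcripts in db/m kidneys, while its median lay just under that of Ugt2b38 (359 against 364 CPM). Ugt2b37 ran from 198 to 510 CPM in db/m (median 359) and from 23.7 to 226 CPM in db/db (median 94.9). All db/db libraries but number 8 lay under every db/m library, and db/db 8 passed only the lowest of these, db/m 8. The mean was 370 ± 93.2 CPM (SD, n = 8) against 102 ± 63.4 CPM (SD, n = 9). The log2 fold change was -1.86 (SE 0.32, edgeR adjusted p = 0.000628), a 3.63-fold lower level, and -2.46 without the 3 libraries that stood apart.

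Ugt2b38 ran from 205 to 422 CPM in db/m (median 364) and from 52.6 to 176 CPM in db/db (median 104). Every db/db library lay under every db/m library, a separation that 1.05% of all genes tested showed in this direction. The mean was 337 ± 70.5 CPM (SD, n = 8) against 106 ± 35.5 CPM (SD, n = 9), a log2 fold change of -1.67 (SE 0.19, edgeR adjusted p = 4.06e-06). The last 300 bases of the Ugt2b37, Ugt2b38 and Ugt2b34 transcripts held no run of 50 bases found in another gene, so reads from these ends can be assigned to 1 gene.

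Ugt2b37 and Ugt2b38 varied together among animals of a group, in a relation that was weaker without the extreme libraries. Pearson's r among the db/m libraries was 0.830 (n = 8, exact permutation p = 0.0183, two-sided), with a Spearman's rho of 0.548 (exact permutation p = 0.171). Among the db/db libraries r was 0.778 (n = 9, exact permutation p = 0.0133) and rho was 0.783 (exact permutation p = 0.0172). Adjusted over these 2 relations by the Benjamini-Hochberg method, p was 0.0183 for r in both groups, and 0.171 (db/m) and 0.0344 (db/db) for rho. Without the 2 libraries whose Ugt2b37 level was farthest from the group median (db/m 5 and 8), r was 0.144 in db/m (n = 6, exact permutation p = 0.869). In db/db, without db/db 3 and 4, it was 0.460 (n = 7, exact permutation p = 0.308). Leaving out extremes narrows the range and by itself lowers r, and few libraries remain. Whether the relation holds without them is thus not settled. The ratio of Ugt2b37 to Ugt2b38 lay between 0.874 and 1.34 in db/m and spread from 0.328 to 1.79 in db/db.

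**Figure D2:**
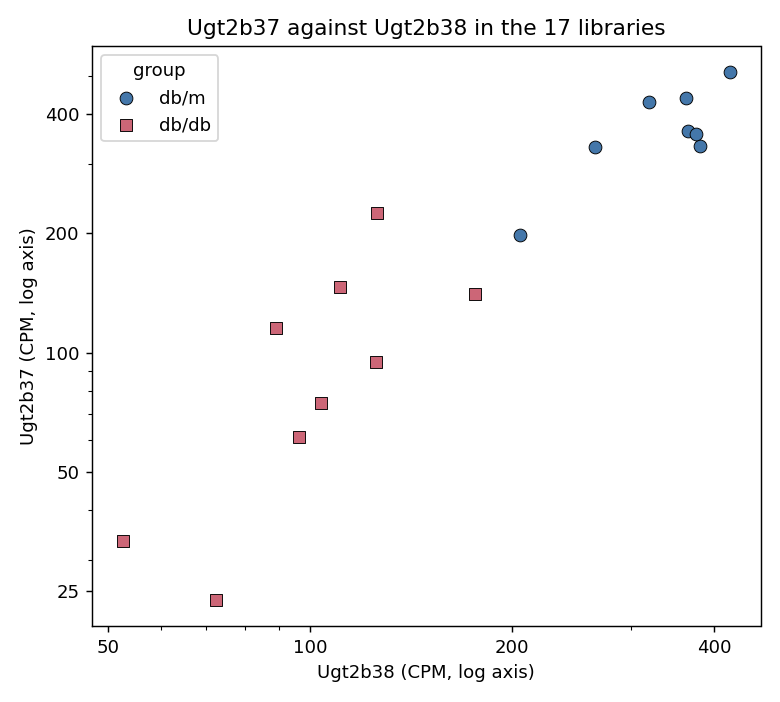
Ugt2b37 (y axis, CPM, log scale) against Ugt2b38 (x axis, CPM, log scale) in the 17 libraries; circles are db/m and squares db/db. The db/m libraries sit at 198 CPM or more on the y axis and 205 CPM or more on the x axis, and the db/db libraries at or below 226 and 176 CPM, with the lowest Ugt2b37 level at 23.7 CPM.

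Most listed genes of the late proximal tubule and all listed male-biased kidney genes were called lower in the same comparison. Of 13 markers of the S3 segment, the last part of the proximal tubule, 8 were called lower and 1 higher (Slc5a10, log2 fold change 1.10). Slc22a13 (-0.53), Slc3a1 (-0.21), Slc7a9 (-0.09) and Slc5a8 (-0.06) were not called. The summed level of the 13 was 6825 to 9185 CPM among db/m animals and 3205 to 4668 CPM among db/db animals. Acy3 made the largest part of the S3 sum (3552 ± 541 CPM, SD, n = 8, against 974 ± 260 CPM, SD, n = 9). Of 14 genes known for a higher level in kidneys of male mice, 14 were called lower. Their sum was 20613 to 31916 CPM among db/m animals and 2390 to 6758 CPM among db/db animals. Kap made the largest part of this sum (24182 ± 4201 CPM, SD, n = 8, against 4051 ± 1238 CPM, SD, n = 9). Slc7a13 and Cyp7b1 stand in both this list and the S3 list, so the lists are not independent. Of 5 tested female-biased genes, 2 were called higher (Cyp4a14 and Prlr) and 2 lower (Cyp2a4 and Slc22a19). The sum of all 6 listed genes was 59.2 to 272 CPM among db/m and 328 to 742 CPM among db/db animals, with no overlap. Cyp4a14 made the largest part of the db/db sum (403 ± 114 CPM, SD, n = 9, against 18.0 ± 18.8 CPM, SD, n = 8). Cyp2a4, the largest part of the db/m sum, fell from 117 ± 43.9 CPM (SD, n = 8) to 27.4 ± 15.9 CPM (SD, n = 9). The separation of this sum is thus not a rise of the whole list. Of 15 markers of the S1 and S2 segments, 3 were called higher and 0 lower. No defining S3 marker was at 0 in either group (Slc7a13 89.5 ± 36.7 CPM in db/db, SD, n = 9). The part of these segments and sex-biased programmes in the Ugt2b37 and Ugt2b38 result was not tested, and in whole tissue fewer cells of a type and less RNA per cell cannot be told apart.

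Ugt2b34, a low-abundance member of the same cluster, went the other way. It ran from 1.15 to 4.33 CPM in db/m (median 2.66) and from 4.32 to 13.2 CPM in db/db (median 7.41). All db/db libraries but number 7 lay above every db/m library, and that one fell just short of the highest db/m value. The mean was 2.76 ± 1.25 CPM (SD, n = 8) against 8.45 ± 3.09 CPM (SD, n = 9), a log2 fold change of 1.64 (SE 0.28, edgeR adjusted p = 0.000628), or 3.11-fold higher. The group totals behind it were 99 and 339 counts. The ratio of Ugt2b34 to Ugt2b38, genes that changed in opposite directions, was 0.00273 to 0.0119 in db/m and 0.0390 to 0.251 in db/db. Its separation follows from these changes and adds no further evidence.

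Liver cell markers, in a tissue where UGT2B genes are also active, were measured beside this gene. Of 8 tested, 3 were called higher (Apoa2, Apoc3 and Trf). Serpina1a (-0.19), Serpina1c (-0.30) and Fga (-0.18) had log2 fold changes of the other sign and were not called. The sum of all 16 was 125 to 185 CPM among db/m animals and 190 to 294 CPM among db/db animals, with no overlap. Apob made the largest part of it (58.7 ± 12.5 CPM, SD, n = 8, and 99.9 ± 45.4 CPM, SD, n = 9) and was not called. Albumin (Alb) stood at 8.07 ± 3.79 CPM (SD, n = 8) and 16.5 ± 8.50 CPM (SD, n = 9). Tat was at 0 in all libraries, Cyp3a11 had 0 and 8 counts and Cps1 had 1 and 9. The part of liver cells in the Ugt2b34 result was not tested.

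Ugt3a2, which uses UDP-glucose or UDP-xylose rather than UDP-glucuronate as the sugar donor, was spread widely. It ran from 29.3 to 203 CPM in db/m (median 60.6) and from 18.8 to 179 CPM in db/db (median 26.1). The db/db range rests on library db/db 1 alone, and the other 8 db/db libraries lay at or under 50.4 CPM. A log2 fold change of -1.02 was estimated (SE 0.46, interval -1.98 to -0.07, edgeR adjusted p = 0.204). Without db/db 1 it was -1.68 (edgeR adjusted p = 0.00227), which passed the threshold.

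The high Ugt3a2 libraries were db/m 2, 4 and 8 and db/db 1, at 125, 203, 163 and 179 CPM. Mgst1 and Mgst3, membrane-bound glutathione transferases, were at or near the top of their group in the same libraries. In that order Mgst1 stood at 9.69, 9.43, 18.8 and 27.8 CPM and Mgst3 at 9.21, 11.5, 14.8 and 27.1 CPM. The summed level of 17 thick limb, distal tubule and collecting duct markers was lowest within its group in these libraries, at 3759, 3851 and 3894 CPM in db/m 2, 4 and 8 and 4484 CPM in db/db 1. Of these 17 markers 11 were called higher and 1 lower in db/db. The part of these cell types in the values was not tested.

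**Figure D3:**
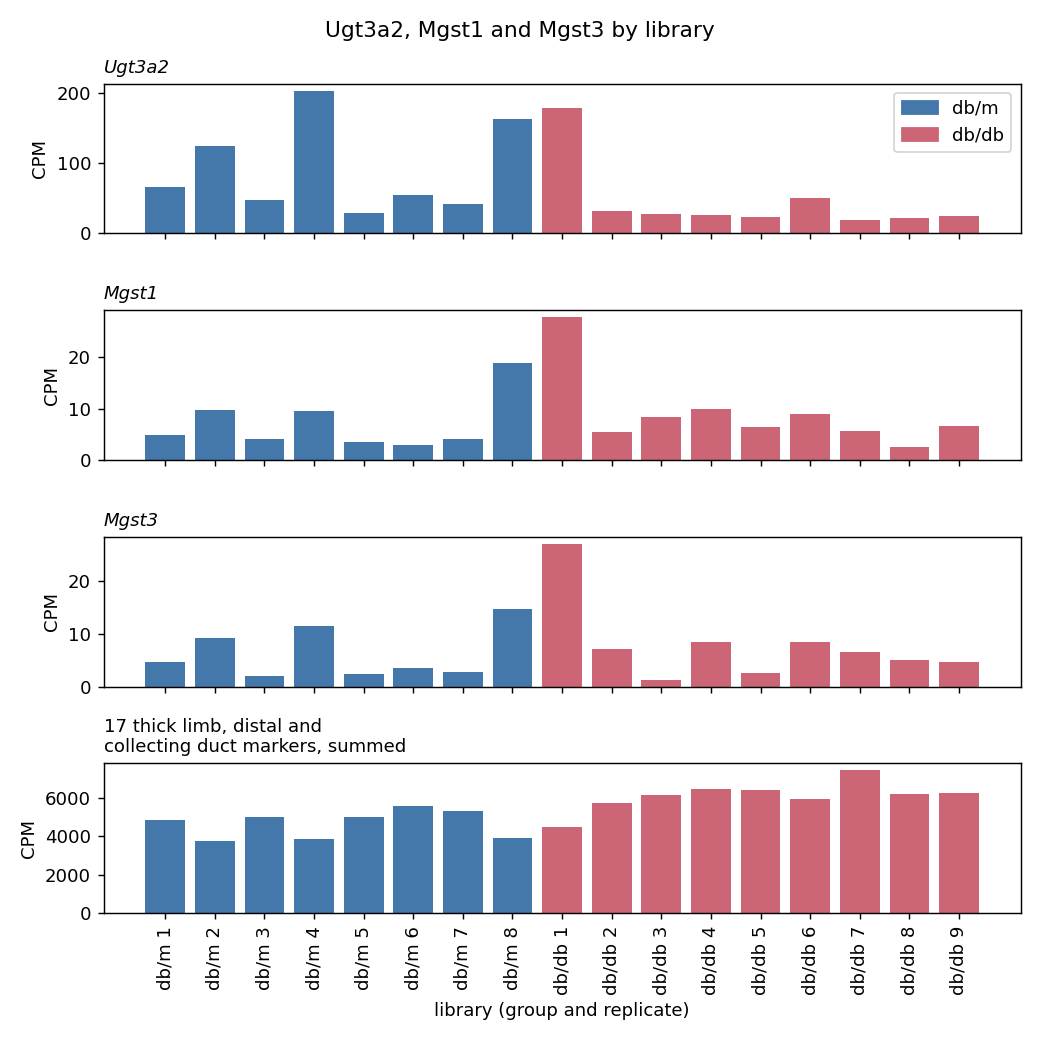
Level (y axis, CPM) of Ugt3a2, Mgst1, Mgst3 and 17 summed thick limb, distal tubule and collecting duct markers in each of the 17 libraries (x axis; blue bars db/m, red bars db/db). Ugt3a2 reaches 125 CPM or more in db/m 2, 4 and 8 and in db/db 1, the libraries where the summed markers are lowest within their group.

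The Ugt1a genes, which include the bilirubin enzyme Ugt1a1, cannot be measured one by one in these data. Their transcripts differ in the first exon and share the rest, and 8 of the 9 genes had no 50-base run in their last 300 bases that is theirs alone. Ugt1a7c, where 50% of such runs were shared, was the only one with enough counts. It ran from 1.71 to 5.76 CPM in db/m (median 3.68) and from 1.31 to 7.83 CPM in db/db (median 5.04). Its mean was 3.57 ± 1.45 CPM (SD, n = 8) against 4.67 ± 2.00 CPM (SD, n = 9), and the log2 fold change of 0.40 (SE 0.30, interval -0.23 to 1.03, edgeR adjusted p = 0.487) did not pass. Summed over libraries, Ugt1a1 had 6 counts in the db/m animals and 30 in the db/db animals, Ugt1a2 had 0 and 19, Ugt1a5 had 51 and 30, and Ugt1a6a had 21 and 63. Which Ugt1a gene such reads came from is uncertain.

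As a family, UGT transcripts had a lower total in db/db, mainly through Ugt2b37 and Ugt2b38. The 21 UGT genes together made 811 ± 138 CPM (SD, n = 8) in db/m and 271 ± 121 CPM (SD, n = 9) in db/db, and the ranges of 574 to 977 and 129 to 518 CPM did not overlap. Ugt2b37 and Ugt2b38 made up 86.6 ± 8.88% (SD, n = 8) of that total in db/m and 76.2 ± 10.7% (SD, n = 9) in db/db. Without this pair the UGT total was 104 ± 64.3 CPM (SD, n = 8) against 63.9 ± 52.6 CPM (SD, n = 9), with overlapping groups. A 3′ count does not grow with transcript length, but genes that share their transcript ends, such as the Ugt1a genes, may be under-counted in such sums.

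**Figure D4:**
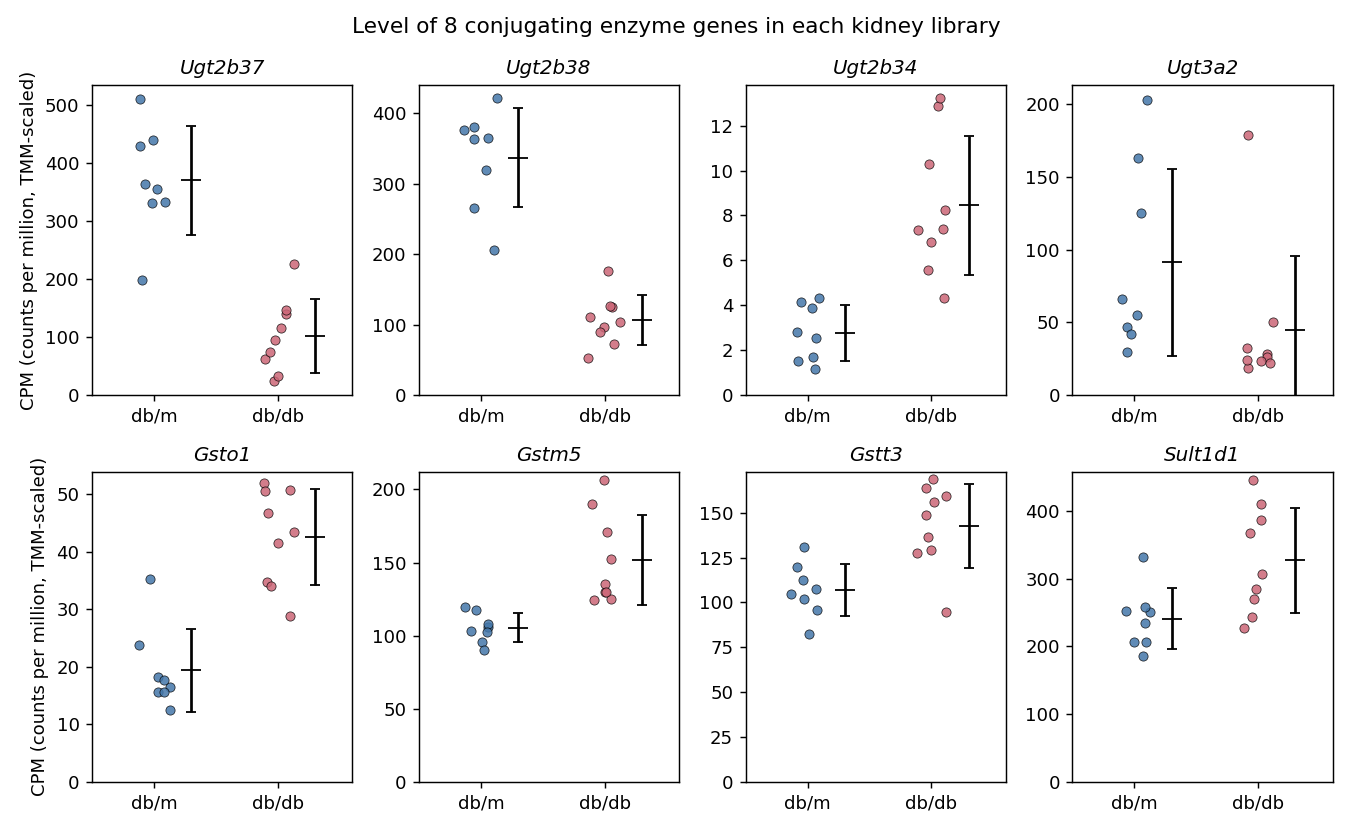
Level (y axis, CPM, from 0) of 8 genes in each library of the db/m (blue) and db/db (red) groups; points are libraries, and the black dash and bar give the group mean ± SD, cut at 0 for Ugt3a2 in db/db. Ugt2b38 separates the groups downward, with 176 CPM the highest db/db and 205 CPM the lowest db/m value, and Gstm5 separates them upward at 119 and 124 CPM.

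Sult1d1, the mouse sulfotransferase for dopamine and other catecholamines, dominated its family. It made up 82.5 ± 3.09% (SD, n = 8) of SULT transcripts in db/m and 84.5 ± 4.64% (SD, n = 9) in db/db. It ran from 186 to 332 CPM in db/m (median 243) and from 227 to 445 CPM in db/db (median 307). The groups overlapped, with 4 of 9 db/db libraries above every db/m library. Its log2 fold change of 0.44 (SE 0.14, interval 0.14 to 0.74, edgeR adjusted p = 0.0674) missed the threshold. It passed without the 3 libraries that stood apart (0.46), without db/m 4, db/db 4 or db/db 7 (lowest edgeR adjusted p = 0.0370), with total counts as the scaling (0.49) and with DESeq2 (0.44).

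None of the other reported SULT genes was called. Sult5a1, a sulfotransferase of little-known substrate, ran from 0.969 to 3.04 CPM in db/m (median 1.96) and from 1.26 to 4.54 CPM in db/db (median 2.38), with a log2 fold change of 0.37 (SE 0.29, edgeR adjusted p = 0.511). Sult1a1, which sulfates phenols, had 11.4 ± 3.15 CPM (SD, n = 8) and 14.6 ± 4.40 CPM (SD, n = 9), a log2 fold change of 0.36 (SE 0.21, edgeR adjusted p = 0.332). Without db/db 1, 7 and 8 the Sult1a1 value was 0.58 (edgeR adjusted p = 0.0442), which passed. Sult1b1, which sulfates thyroid hormones, stood at 3.21 ± 0.792 CPM (SD, n = 8) and 3.63 ± 1.06 CPM (SD, n = 9), and Sult1c2 at 32.7 ± 4.45 CPM (SD, n = 8) and 34.9 ± 8.10 CPM (SD, n = 9). The 21 SULT genes summed to 291 ± 43.9 CPM (SD, n = 8) in db/m and 384 ± 73.8 CPM (SD, n = 9) in db/db, with overlapping groups. The estrogen sulfotransferase Sult1e1 had 3 and 2 counts in all, and Sult2b1, which sulfates cholesterol, had 16 and 45.

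Among the glutathione transferases Gsto1, which reduces dehydroascorbate and carries thiol transferase activity, rose the most. It ran from 12.4 to 35.3 CPM in db/m (median 17.1) and from 28.9 to 52.0 CPM in db/db (median 43.5). Only db/m 8 reached into the db/db range, and 6 of 9 db/db libraries lay above it. The mean was 19.4 ± 7.20 CPM (SD, n = 8) against 42.6 ± 8.37 CPM (SD, n = 9), a log2 fold change of 1.13 (SE 0.18, edgeR adjusted p = 0.000291) or 2.19-fold higher. Its neighbour Gsto2 had 53 and 40 counts in all and was not reported.

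Of the mu class, on chromosome 3, Gstm5 rose and the most abundant member did not. Gstm5 ran from 90.02 to 119 CPM in db/m (median 105) and from 124 to 206 CPM in db/db (median 135). All 9 db/db libraries lay above all 8 db/m libraries, a separation that 0.734% of all genes tested showed in this direction. The mean was 105 ± 10.03 CPM (SD, n = 8) against 152 ± 30.6 CPM (SD, n = 9), a log2 fold change of 0.52 (SE 0.11, edgeR adjusted p = 0.00545). Without the 3 libraries that stood apart, 2 of which gave the highest values, it was 0.36 (edgeR adjusted p = 0.0184).

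Gstm1, the most abundant of all 63 members, ran from 272 to 493.2 CPM in db/m (median 412) and from 253 to 487 CPM in db/db (median 406). Its means were 398 ± 76.7 CPM (SD, n = 8) and 400 ± 69.0 CPM (SD, n = 9), a log2 fold change of 0.01 (SE 0.13, interval -0.27 to 0.28, edgeR adjusted p = 0.982). Of the 50-base runs in its last 300 bases 22.95% occur also in Gstm3 or a pseudogene, so part of its reads is uncertain. Gstm1 made 69.9 ± 3.04% (SD, n = 8) of mu-class transcripts in db/m and 64.0 ± 4.89% (SD, n = 9) in db/db. Gstm7 had 9.91 ± 2.95 CPM (SD, n = 8) and 14.7 ± 5.08 CPM (SD, n = 9), a log2 fold change of 0.55 (SE 0.22, edgeR adjusted p = 0.149), which passed only without db/db 1 (0.65, edgeR adjusted p = 0.0468). Gstm2 and Gstm4 had log2 fold changes of 0.11 and 0.09, and neither was called.

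Genes of the mu class are known targets of the stress factor NRF2, which binds the antioxidant response element. The Gstm5 promoter is shown because it holds the core letters TGACNNNGC of that element (N is any base) close to the start. The 120 bases before its start on the plus strand (RefSeq, GRCm38.p6) are printed with this match in capitals, 42 to 34 bases upstream. Bases next to the core were not part of the search, and binding of NRF2 there was not tested.
Gstm5, chr3:107895734-107895853: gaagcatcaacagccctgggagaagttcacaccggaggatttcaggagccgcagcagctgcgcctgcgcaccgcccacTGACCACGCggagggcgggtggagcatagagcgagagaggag

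RefSeq promoter windows (250 bases before to 50 after a start) were found for 21 of the 23 reported genes, 28 windows in all. Gstt2 and Ugt3a2 had none. Short motifs were searched on both strands in the 250 upstream bases of these and of all 32851 windows. The 50 bases after the start were not searched. The antioxidant response core TGACNNNGC was present in Gstm5, Gstm7 and Mgst1, 3 of 21 genes, and in 10.2% of all windows. The nuclear receptor core AGGTCA occurred in 5 genes and in 14.02% of all windows, and in Ugt2b37 and Ugt2b38 it lies inside the shared run printed above. The steroid receptor core AGAACA was in 8 genes, Ugt2b34 among them and Ugt2b37 and Ugt2b38 not, and in 16.1% of all windows. The xenobiotic response core GCGTG was in 5 genes and 28.2% of windows, and 1 of its 2 copies in the Gstm5 window overlaps the capitals. GTTAAT, an arm of the HNF1 site, was in 2 genes (6.43% of windows), the full HNF1 site in 0 genes (0.00913%) and the TATA box TATAAA in 2 genes (12.4%). Genes with several windows had more chances to match, and a match is a description of letters only.

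The theta class is a cluster on chromosome 10 in which Gstt3 was called and its neighbours were not. Gstt3 ran from 82.6 to 131 CPM in db/m (median 106) and from 94.8 to 169 CPM in db/db (median 149). The groups overlapped through db/db 1, the lowest db/db library, and through the upper db/m values, with 6 of 9 db/db libraries above every db/m library. Its mean was 107 ± 14.7 CPM (SD, n = 8) against 143 ± 23.2 CPM (SD, n = 9), a log2 fold change of 0.42 (SE 0.11, edgeR adjusted p = 0.0276). This call lies near the threshold: it was lost in 8 of 17 fits that left out 1 library (db/m 1, 2, 3, 4 or 6, db/db 3, 7 or 9), in which adjusted p reached 0.0776, and with no count filter. Of the 50-base runs in its transcript ends 21.5% also occur in other genes.

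Gstt2, the most abundant theta member, ran from 154 to 198 CPM in db/m (median 177) and from 106 to 218 CPM in db/db (median 160), with a log2 fold change of -0.07 (SE 0.12, interval -0.32 to 0.18, edgeR adjusted p = 0.796). Gstt1, beside Gstt3, had 114 ± 15.4 CPM (SD, n = 8) and 103 ± 14.6 CPM (SD, n = 9), a log2 fold change of -0.15 (SE 0.10, edgeR adjusted p = 0.437). The ratio of Gstt3 to Gstt1 lay between 0.845 and 1.05 in db/m. In db/db it lay between 0.968 and 1.85, with 8 of 9 libraries above every db/m library. For the ratio of Gstt3 to Gstt2, 6 of 9 db/db libraries lay above every db/m library. Both ratios contain Gstt3, which was itself called higher, so they add no further evidence of its change.

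The remaining GST members were not called. Gstz1, the maleylacetoacetate isomerase of tyrosine breakdown, ran from 178 to 243 CPM in db/m (median 212) and from 166 to 302 CPM in db/db (median 200), with a log2 fold change of -0.01 (SE 0.12, interval -0.26 to 0.24, edgeR adjusted p = 0.9751). Gstk1, the kappa enzyme of mitochondria and peroxisomes, ran from 51.4 to 72.4 CPM in db/m (median 59.5) and from 54.2 to 80.4 CPM in db/db (median 63.8), with a log2 fold change of 0.10 (SE 0.10, edgeR adjusted p = 0.605). Mgst1 ran from 2.83 to 18.8 CPM in db/m (median 4.52) and from 2.47 to 27.8 CPM in db/db (median 6.68), with a log2 fold change of 0.34 (SE 0.42, edgeR adjusted p = 0.703). For Mgst3 the log2 fold change was 0.30 (SE 0.49, edgeR adjusted p = 0.783). Both membrane enzymes turned to the other sign without db/db 1, at -0.07 and -0.22. The 21 GST and MGST genes summed to 1275 ± 108 CPM (SD, n = 8) in db/m and 1378 ± 128 CPM (SD, n = 9) in db/db, with overlapping groups.

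The pi class was nearly uncounted: Gstp1 had 45 counts in the db/m animals and 24 in the db/db animals, Gstp2 had 1 and 0, and Gstp3 had 1 and 1. Of the 50-base runs in the Gstp1 transcript ends 76.7% also occur in Gstp2 or a pseudogene. The table's line for reads with several alignments stands at 0 reads. Gapdh and Pgk1, genes with many pseudogene copies that every cell uses, had 18 and 25 counts and 30 and 35 counts in the 2 groups. Whether the low counts of Gstp1 reflect the level of its transcript cannot be told from these data, and the part of shared sequence was not tested.

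Of the 40 unreported genes, 14 had no count in any library (6 UGT, 8 SULT and 0 GST genes). A count of 0 allows up to 3 counts of a library's total, which is 0.393 to 0.921 CPM. Among the rest, the counts summed over db/m and over db/db libraries were 39 and 71 for Gstm6, 55 and 36 for Ugt3a1 and 35 and 35 for Ugt2a3. Mgst2 had 13 counts in the db/m animals and 1 in the db/db animals, and Gstt4 had 3 and 3.

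The supply of cofactors was described from lists of related genes in the same fit. Of 13 tested genes of UDP-glucuronate supply and glucuronide handling, 0 were called higher and 2 lower. These were Gusb, which splits glucuronides (log2 fold change -0.62), and Dhdh, a dihydrodiol dehydrogenase (-1.03). Ugdh, the enzyme that makes UDP-glucuronate, had 31.3 ± 7.14 CPM (SD, n = 8) and 28.9 ± 4.88 CPM (SD, n = 9) and was not called. Of 19 genes of sulfate supply 1 was called higher, the anion exchanger Slc26a6 (1.24), and 0 lower. The PAPS synthases Papss1 and Papss2 had log2 fold changes of 0.18 and -0.07.

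Genes of glutathione synthesis and the mercapturate route were called in both directions: 7 of 27 tested were lower and 3 higher, with a median of -0.09 over the list. Both subunits of glutamate-cysteine ligase, the rate-limiting enzyme of glutathione synthesis, fell (Gclc -0.48, Gclm -0.91). Acy3, which deacetylates mercapturates and stands also in the S3 list, fell by 1.87 on the log2 scale, from 3552 ± 541 CPM (SD, n = 8) to 974 ± 260 CPM (SD, n = 9) with no overlap. Cndp2 (-1.54) and Ggct (-1.01), which break down the dipeptides of glutathione turnover, Lap3 (-0.75) and Cbs (-0.69) were the others. Those that rose were Ggt5 (0.85), which removes the glutamyl group, the renal dipeptidase Dpep1 (0.63) and the plasma glutathione peroxidase Gpx3 (0.75).

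Of 15 other proteins with a glutathione transferase fold or a membrane relation, 2 were called higher and 0 lower. Ltc4s, the leukotriene C4 synthase and a relative of the Mgst enzymes, rose by 1.78 on the log2 scale, from 2.73 ± 0.463 CPM (SD, n = 8) to 9.50 ± 2.59 CPM (SD, n = 9) with no overlap, and Gdap2 rose by 0.61. Of 16 conjugate transporters, 2 were higher, the ATP-driven exporters Abcc4 (1.23) and Abcb1b (1.19), and 1 was lower, Slco3a1 (-0.64). Among 22 transcription factors known to act on promoters of such enzymes, the pregnane X receptor Nr1i2 was higher (1.41), while the estrogen receptor Esr1 (-1.14) and the glucocorticoid receptor Nr3c1 (-0.51) were lower. The NRF2 gene Nfe2l2 had a log2 fold change of 0.38 and was not called, nor was Hnf4a (-0.18).

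Markers of cells outside the tubule were counted as well. Of 12 endothelial and stromal markers tested 0 were called, and of 8 leukocyte markers 0 were higher and 3 lower. Of 6 fat cell markers tested 0 were called, but the sum of all 11 on the list reached 1063 CPM in library db/m 8 and, among db/db libraries, 727 CPM in number 9, against medians of 133 and 87.8 CPM. Library db/m 8 also held the lowest db/m values of Ugt2b37 and Ugt2b38 and the highest of Gsto1. Without db/m 8 these 3 genes were still called, and the part of fat tissue in their values was not tested.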

How the data were processed

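RNA was made into QuantSeq 3′ libraries, per the labels' protocols, whose text speaks of cells in plates while the tissue field gives kidney. The authors deposited raw counts per gene. STAR 2.7.3a, HTSeq 2.16.2 and a human genome, GRCh38, are named per the submitters' processing notes, although the identifiers are of mouse Ensembl genes. Which mouse annotation and strand setting were used, and whether molecular identifiers were counted, is not stated, so genes overlapping on opposite strands are uncertain and limits from counts cover counting error only. The lines for reads outside genes (19.3% of all reads) and ambiguous reads (0.533%) stayed out of library sizes and tests. Of 55487 identifiers 55141 were given a symbol. Transcript 3′ ends come from GENCODE M21 and promoters and gene order from RefSeq GRCm38.p6.

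Counts were tested with edgeR 4.0.16 in R 4.3.3: quasi-likelihood F-test, db/db against db/m over all 17 libraries, no covariate, TMM scaling, filterByExpr with a minimum count of 10, robust option off, Benjamini-Hochberg adjustment over all 12131 genes tested and a threshold of 0.05. Positive log2 fold changes mean higher in db/db, and intervals are at the 95% level. CPM values use TMM factors. Replicate numbers did not pair the animals: deviations of same-numbered libraries correlated between -0.454 and 0.212, over 0.1 in 2 of 8 pairs. Alternatives were RLE scaling, total counts only, 2 other count filters, the robust option, limma-voom (limma 3.58.1), DESeq2 1.42.0, a replicate block, no mitochondrially encoded genes, leaving out the libraries that stand apart and leaving out each library. The procedure was tested on simulated data.

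Members called by the test, and the most abundant reported member of each subfamily, are described with group values. Of the others up to 5 are named for the size of their change, and of the related lists the called genes and up to 3 abundant uncalled ones. A few genes beyond this rule (Gstm2, Gstm4, Sult1c2, Ugdh, Papss1, Nfe2l2) were named after their values were seen. The rule was not followed for the male-biased genes and the S1 and S2, S3, thick limb to collecting duct and leukocyte markers. Of these lists only some or none of the called genes are named. The members and lists were chosen with earlier results of these data known. Some items of the strain and of the lists are not reported here.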

Additional observations from a re-analysis of the deposited data

Results flagged for a closer look

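Dixon's test on log2 CPM, applied to 46 groups (23 genes in each genotype), found 5 values far from the rest of their group, and chance gives about 1 in 20. Library db/db 1 held 3 of them: the lowest db/db level of Gstm1 (253 CPM), the lowest of Gstt3 (94.8 CPM) and the highest of Ugt3a2 (179 CPM). Sult1a1 was lowest in db/db 8 (6.18 CPM). Ugt2b37 was lowest in db/m 8 (198 CPM).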

How the results depend on the processing

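Gstm5, Gsto1, Ugt2b34, Ugt2b37 and Ugt2b38 were called in the same direction in all 17 fits without 1 library and in the 10 other settings. Members called numbered 3 to 5 higher and 2 to 3 lower over the fits without 1 library, and all genes 319 to 666 higher and 318 to 571 lower. With total counts only, Gstz1 was 0.021. Without the libraries that stand apart, Mgst3 was -0.27 and Gstt2 was 0.052. Leaving out 1 library at a time turned the sign of Gstz1 (-0.085 to 0.034), Gstm1 (-0.052 to 0.080), Mgst1 (-0.075 to 0.73), Mgst3 (-0.22 to 0.61) and Gstm4 (-0.019 to 0.17), all uncalled, and the cause was not tested. Family sums kept their order with total counts only.

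With replicate number as a block, over the 8 numbers both groups hold (library db/db 9 left out), 194 genes were called higher and 231 lower, and 3 members higher and 2 lower. Gstt3 was 0.39 and no longer called, Gstm4 was -0.0090 and Gstm1 -0.018. The numbers did not pair the samples, and no sample correlated best with its own number. Low counts limit the precision of Ugt2b34, Sult5a1 and Ugt1a7c.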
